A study of Homo sapiens with 6 samples.

Results

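SNARE genes encode the proteins that fuse transport vesicles with their target membranes. They were picked by symbol, as every gene named STX or VAMP with a number, together with SNAP23, SNAP25, SNAP29, SNAP47, BET1, BET1L, GOSR1, GOSR2, SEC22A, SEC22B, SEC22C, YKT6, VTI1A, VTI1B, USE1 and BNIP1. The deposited tables held 39 of them among 17318 genes. RNA was sequenced from SNU216, an established human gastric cancer cell line, 48 h after the cells were transfected with siRNA, either targeting OXTR, which encodes the receptor for the hormone oxytocin (siOXTR, 3 libraries), or a control (siControl, 3 libraries). All libraries share the parent line and the transfection, and nothing in the labels says whether the 3 libraries of a group were separate cultures, so p-values here reflect only library-to-library spread, possibly technical.

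A SNARE protein carries a coiled-coil motif of a Q or R type. A trans-SNARE complex forms when an R-SNARE on the vesicle zips together with Qa, Qb and Qc motifs on the target, which pulls the membranes into contact. The ATPase NSF and its SNAP adaptors then take the complex apart, and Sec1/Munc18 (SM) proteins and tethering complexes guide its assembly. Most SNAREs are tail-anchored: one hydrophobic segment at the very end of the protein holds it in the membrane, and it is inserted after translation, with no signal peptide, partly by the GET pathway. Different complexes serve different steps, so that each compartment of the secretory and endosomal route has its own set.

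OXTR was at 4.76, 4.65 and 5.34 FPKM (fragments per kilobase and per unit of mapped fragments) in siOXTR, against 39.37, 38.87 and 39.02 FPKM in siControl. The lowering of the targeted gene therefore followed the labels in every library. Across the 11550 genes averaging 1 FPKM or more, Pearson's r was 0.995 to 0.998 within groups and 0.974 to 0.976 between them. All 7 epithelial markers found in the tables were present in every library, and their summed level was 7940 to 8092 FPKM in siOXTR and 6849 to 7928 FPKM in siControl. That sum was mostly KRT8, KRT18 and KRT19. Of these 7 markers, 1 (KRT19) rose and 4 (EPCAM, CDH1, CLDN7 and MUC1) fell. After the trimmed-mean scaling described below, none was higher and 4 were lower. CDH1 was at 19.8 to 20.27 FPKM in siOXTR and 73.32 to 79.7 FPKM in siControl. EPCAM was at 136.34 to 149.83 FPKM in siOXTR and 280.41 to 310.91 FPKM in siControl. Fibroblast markers summed to 0.61 to 0.81 FPKM in siOXTR and 1.62 to 2.02 FPKM in siControl, and blood and endothelial markers to 0.98 to 1.78 FPKM in siOXTR and 0.75 to 1.1 FPKM in siControl. The part of these marker shifts in the SNARE values was not tested. In these bulk libraries, fewer cells of a type and less RNA per cell cannot be told apart.

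SNARE transcripts were higher after OXTR knockdown, in most members and by a modest amount. Of the 35 members that averaged 1 FPKM or more, 25 rose and none fell (limma on log2(FPKM + 1), Benjamini-Hochberg adjusted p under 0.05 over all tested genes). Among all tested genes 42.2% were called higher and 17.6% lower (59.8% in either direction), so the share of 71.4% of members called higher stood above the background and the share called lower below it. At an unadjusted p under 0.05 no member was lower either. The rises ran from 1.12-fold to 1.5-fold as ratios of mean FPKM, and 2 of the 25 reached 0.5 on the log2 scale, a rise that 2.76% of all tested genes reached, while 8.35% fell by as much. The median log2 fold change of the 35 members was 0.26, against 0.13 for all tested genes, and 25 of the 35 lay above that overall median. In 23 of the 35 every siOXTR library was above every siControl library, as it was in 45.2% of tested genes, and in the other 12 the groups overlapped. Groups were apart in either direction in 64.4% of tested genes.

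The summed FPKM of the family was 1002, 1009 and 1020 FPKM in siOXTR, against 812, 827 and 811 FPKM in siControl. This is a ratio of 1.24 between the group means, whereas the total over all genes had a ratio of 1.06. The siOXTR sums thus lay above all siControl sums, and the family held 0.220% to 0.225% of all FPKM in siOXTR and 0.187% to 0.194% in siControl.

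By the position that a SNARE takes in the complex, all 5 Qb-SNAREs (median log2 fold change 0.42) and all 6 Qc-SNAREs (0.31) rose. Of the 11 tested Qa-SNAREs, the syntaxins, 8 rose (0.26), as did 5 of the 8 tested R-SNAREs (0.25) and 1 of the 3 tested proteins that supply both a Qb and a Qc motif (0.13). Neither of the SEC22-like members, SEC22A and SEC22C, passed the threshold. After trimmed-mean scaling all 5 Qb-SNAREs were still higher, as were 3 of the 6 Qc-, 4 of the 11 Qa- and 3 of the 8 R-SNAREs, and none of the 3 with both motifs. Over all tested genes 42.2% were called higher as deposited and 19.7% after that scaling. The classes are small, and the differences between them were not tested.

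Part of the shift depends on how the libraries are scaled. Trimmed-mean scaling, which aligns the bulk of the genes, shifted the overall median by -0.11 on the log2 scale, to 0.016. On that scale 15 members were higher and 1 was lower, against 19.7% and 24.2% of all tested genes. The share of members called higher was then 42.9%, and their median log2 fold change was 0.14. The 15 were BET1, BNIP1, GOSR1, GOSR2, SEC22B, STX3, STX5, STX8, STX17, STX18, USE1, VAMP3, VAMP8, VTI1A and VTI1B, and all 15 were among the 25 called as deposited. Without scaling, 20 of the 25 kept their call whichever library was left out, namely these 15 with BET1L, STX6, STX10, STX16 and YKT6. The other 5 did not. VAMP1 lost its call without siControl replicate 2 or 3 or siOXTR replicate 1 or 2. STX12 lost it without siControl replicate 1 or 2 or siOXTR replicate 2 or 3, and SNAP47 without replicate 1 or 2 of either group. STX7 lost it without siControl replicate 3 or siOXTR replicate 1 or 2, and STX19 without siControl replicate 1 or 2 or siOXTR replicate 2.

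**Figure D1:**
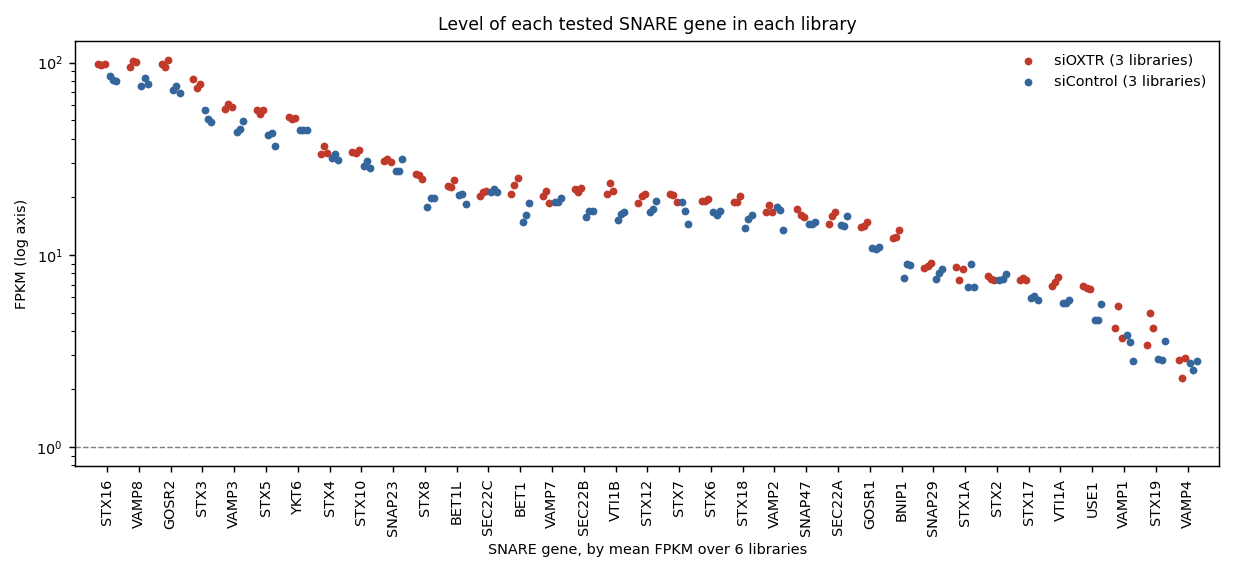
FPKM on a log axis for each of the 35 tested SNARE genes, ordered by their mean, with one point per library (siOXTR red, siControl blue) and a dashed line at 1 FPKM. STX16, VAMP8 and GOSR2 lead at 69.43 to 103.17 FPKM, and VAMP4, STX19 and VAMP1 lie lowest, at 2.27 to 5.43 FPKM.

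Levels within the family spanned a wide range. FPKM is scaled by transcript length, so levels of different genes can be set side by side. STX16, VAMP8, GOSR2, STX3, VAMP3 and YKT6 were above 40 FPKM in every library, and the first 4 of these together made up 36.4% to 37.4% of the family's FPKM in siOXTR and 34.1% to 35.8% in siControl. SNAP25, a neuronal SNARE of synaptic vesicle release, was close to absent. It was listed at 0.03, 0.04 and 0 FPKM in siOXTR and at 0.09, 0.09 and 0 FPKM in siControl. Of the 6 neuroendocrine or neuronal markers found, CHGA, the chromogranin of neuroendocrine granules, reached no more than 0.04 FPKM in any library. ENO2, at 35.28 to 36.29 FPKM in siOXTR and 40.88 to 45.26 FPKM in siControl, made up nearly all of their summed level, which was 36.75 to 37.89 FPKM in siOXTR and 42.84 to 47.61 FPKM in siControl. STX11, an immune cell syntaxin, and VAMP5, described in muscle, reached at most 1.11 FPKM in any library, and members that averaged under 1 FPKM were not tested.

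Promoter sequence was examined for STX3, BNIP1 and STX5, which had the 3 largest changes on the log2(FPKM + 1) scale. As ratios of mean FPKM, BET1 and USE1 stood slightly above STX5. The 250 bases before the RefSeq start (GRCh38.p14) are shown with matches to short motifs in capitals. These are chr11:59755126-59755375 on the plus strand, chr5:173144281-173144530 on the plus strand and chr11:62832052-62832301 on the minus strand. Sequences run 5′ to 3′ along the gene. In GENCODE release 29 these genes span chr11:59713456-59805882, chr5:173144442-173164387 and chr11:62806897-62832088, so the STX3 window lies within the annotated gene and the other windows overlap the annotated start.
STX3: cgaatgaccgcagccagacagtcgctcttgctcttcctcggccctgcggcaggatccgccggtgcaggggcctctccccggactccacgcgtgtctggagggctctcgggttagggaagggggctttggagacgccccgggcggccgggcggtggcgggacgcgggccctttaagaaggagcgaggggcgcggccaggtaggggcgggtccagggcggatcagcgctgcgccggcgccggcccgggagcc
BNIP1: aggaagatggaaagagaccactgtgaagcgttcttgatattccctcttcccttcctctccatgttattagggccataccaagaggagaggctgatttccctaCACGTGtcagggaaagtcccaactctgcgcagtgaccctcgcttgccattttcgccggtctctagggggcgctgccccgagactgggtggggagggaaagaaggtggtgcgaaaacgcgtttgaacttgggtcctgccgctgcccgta
STX5: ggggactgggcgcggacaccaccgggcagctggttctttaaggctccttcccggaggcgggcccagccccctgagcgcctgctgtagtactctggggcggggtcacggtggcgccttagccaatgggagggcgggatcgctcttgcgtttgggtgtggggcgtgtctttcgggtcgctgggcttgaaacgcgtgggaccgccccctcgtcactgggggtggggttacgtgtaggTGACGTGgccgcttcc

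The motifs searched, on both strands, were the TEAD motif GGAATG through which YAP acts, the E-box CACGTG, the unfolded protein response motif TGACGTG, the ER stress element and the ATF4 motif TGATGNAA, none of which contains another. STX5 held TGACGTG 16 bases before its start, BNIP1 held CACGTG 148 bases before its start, and STX3 held none of the 5. Of the 34 members with a promoter entry, 1 held TGACGTG (2.07% of 9511 tested genes did), 5 held CACGTG (9.03%), 3 held GGAATG (9.24%) and none held the other motifs. The members searched were not limited to tested genes, and VAMP5, among the 3 with GGAATG, was not tested. A match of letters is a description and no evidence of binding.

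Most SNAREs between endoplasmic reticulum (ER) and Golgi rose. Of the 12 members placed there, 10 passed the threshold (median log2 fold change 0.38), beside 42.2% of all tested genes called higher. After trimmed-mean scaling 8 were higher and 1 lower, beside 19.7% and 24.2% of all tested genes. STX5, the Qa-SNARE of the Golgi, was at 56.87, 53.97 and 56.92 FPKM in siOXTR, against 41.85, 43.02 and 36.95 FPKM in siControl. All siOXTR libraries were above all siControl libraries, and limma gave 0.45 on the log2 scale with an SE of 0.062 (adjusted p = 7.65e-05). GOSR2 (membrin), its Qb partner for vesicles arriving from the ER, was at 98.64, 94.61 and 103.17 FPKM in siOXTR, against 72.39, 75.34 and 69.43 FPKM in siControl. It rose by 0.44 (SE 0.055, adjusted p = 3.17e-05, limma) and was among the most abundant SNARE transcripts in either group.

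The other partners in that complex followed. BET1, the Qc-SNARE, was at 20.60, 23.02 and 25.01 FPKM in siOXTR and 14.73, 16.17 and 18.58 FPKM in siControl (log2 fold change 0.45, adjusted p = 0.000844, limma). SEC22B, the R-SNARE on ER-derived vesicles, was at 22.05, 21.17 and 22.16 FPKM in siOXTR and 15.70, 16.84 and 16.80 FPKM in siControl (log2 fold change 0.39, adjusted p = 0.00011, limma). All 4 members of the ER to Golgi complex therefore rose with no overlap between groups, and all 4 were also called higher after trimmed-mean scaling. Over all tested genes 45.2% had every siOXTR library above every siControl library, and 19.7% were called higher after that scaling. SEC22B has near-identical pseudogene copies in the human genome, and the handling of shared reads is not stated.

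The complex that acts within the Golgi reuses STX5 with GOSR1, BET1L and YKT6. GOSR1 (GS28) was at 14.01, 14.16 and 14.85 FPKM in siOXTR and 10.84, 10.70 and 11.04 FPKM in siControl (log2 fold change 0.37, adjusted p = 0.000166, limma). BET1L, the Qc-SNARE, was at 22.64 to 24.51 FPKM in siOXTR and 18.43 to 20.63 FPKM in siControl. BET1L and YKT6 rose by 0.23 and 0.20 on the log2 scale, and neither passed the threshold after trimmed-mean scaling (adjusted p = 0.179 and 0.194, limma). YKT6 is an R-SNARE held in place by lipid and not by a membrane segment. Its values were tightly grouped, at 52.35, 51.13 and 51.46 FPKM in siOXTR and 44.66, 44.74 and 44.74 FPKM in siControl.

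The retrograde complex at the ER, which receives vesicles returning from the Golgi, rose as a whole. BNIP1 (Sec20), its Qb-SNARE, was at 12.20, 12.38 and 13.44 FPKM in siOXTR, against 7.56, 8.95 and 8.84 FPKM in siControl. This was a 1.5-fold rise of the mean and the second largest change in the family on the log2(FPKM + 1) scale, at 0.54 (SE 0.072, adjusted p = 6.65e-05, limma). USE1, the Qc-SNARE, was at 6.86, 6.71 and 6.65 FPKM in siOXTR and 4.56, 4.55 and 5.55 FPKM in siControl (log2 fold change 0.40, adjusted p = 0.000773, limma). STX18, the Qa-SNARE, was at 18.91, 18.79 and 20.13 FPKM in siOXTR and 13.72, 15.32 and 16.02 FPKM in siControl (log2 fold change 0.34, adjusted p = 0.000857, limma). Groups did not overlap for any of the 3, nor for SEC22B, which also serves this step, and all 4 were higher after trimmed-mean scaling. The shares over all tested genes were 45.2% with siOXTR apart and higher, and 19.7% called higher after that scaling.

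SEC22A and SEC22C are related to SEC22B but cross the membrane several times, and they were the only members of the ER and Golgi set that did not pass the threshold as deposited. SEC22C was at 20.15, 21.18 and 21.39 FPKM in siOXTR and 21.15, 21.93 and 21.11 FPKM in siControl, with a log2 fold change of -0.032 (95% interval -0.15 to 0.084). After trimmed-mean scaling it was the one member called lower, at -0.15 (adjusted p = 0.037, limma). SEC22A had a log2 fold change of 0.079 (95% interval -0.071 to 0.23). These intervals include small changes in either direction.

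**Figure D2:**
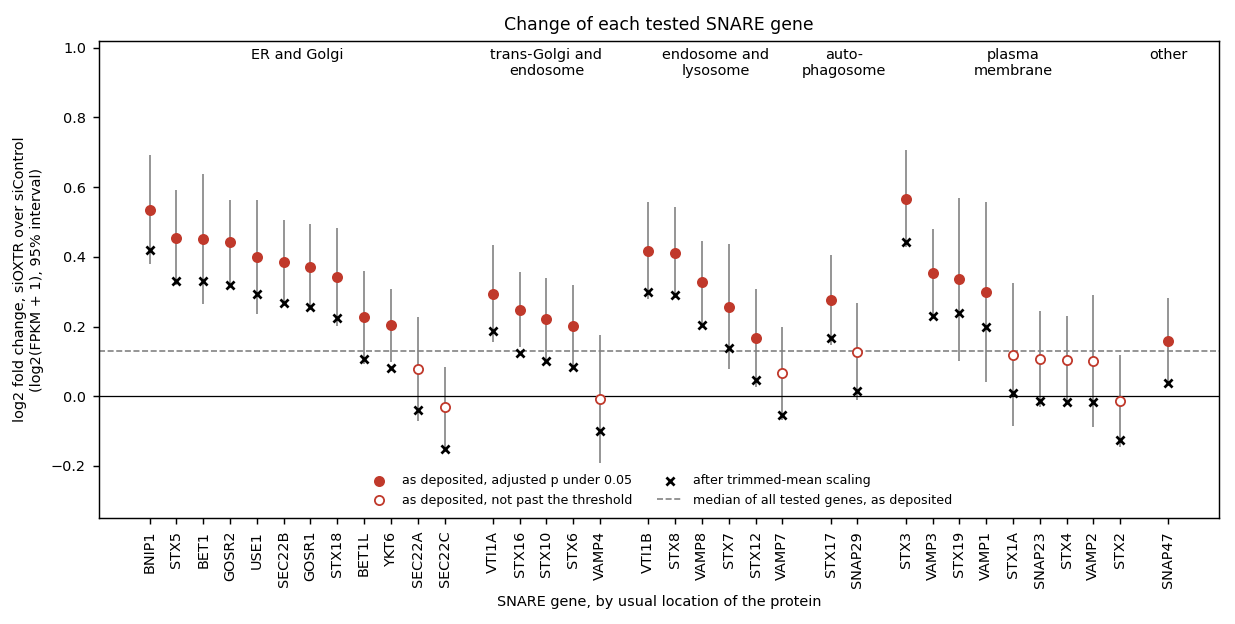
Log2 fold change of siOXTR over siControl on the log2(FPKM + 1) scale, with 95% intervals, for the 35 tested SNARE genes, grouped by where the protein usually acts. Filled circles passed the threshold as deposited, crosses show trimmed-mean scaling, and the dashed line is the median of all tested genes, 0.13. BNIP1, STX5, BET1 and GOSR2 lead the ER and Golgi set and STX3 the plasma membrane set.

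Of the 6 endosomal and lysosomal SNAREs 5 rose (median log2 fold change 0.29), 3 of them also after trimmed-mean scaling. The shares called higher over all tested genes were 42.2% as deposited and 19.7% after that scaling. STX7 and VTI1B, the Qa- and Qb-SNAREs of late endosomes, form a complex with the Qc-SNARE STX8 and the R-SNARE VAMP8. VTI1B was at 20.65, 23.54 and 21.46 FPKM in siOXTR and 15.21, 16.38 and 16.79 FPKM in siControl (log2 fold change 0.42, adjusted p = 0.000184, limma). STX8 was at 26.26, 26.08 and 24.74 FPKM in siOXTR and 17.70, 19.73 and 19.84 FPKM in siControl (log2 fold change 0.41, adjusted p = 0.000127, limma). VAMP8, also called endobrevin, was at 95.21, 101.52 and 101.12 FPKM in siOXTR and 75.96, 82.85 and 77.81 FPKM in siControl (log2 fold change 0.33, adjusted p = 0.00031, limma). For these 3 genes the groups were apart and the call held after trimmed-mean scaling. STX7 itself was at 20.75, 20.57 and 18.91 FPKM in siOXTR and 18.81, 16.94 and 14.41 FPKM in siControl, so that its groups nearly met. It rose by 0.26 (adjusted p = 0.0181, limma), but not after that scaling (log2 fold change 0.14, adjusted p = 0.192, limma). With siControl replicate 3 left out STX7 was at 0.16 (adjusted p = 0.061, limma).

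STX12, the Qa-SNARE of recycling endosomes, was at 18.68, 20.26 and 20.83 FPKM in siOXTR and 16.75, 17.24 and 18.95 FPKM in siControl, and the groups overlapped. It passed the threshold narrowly (log2 fold change 0.17, adjusted p = 0.0407, limma). VAMP7, an R-SNARE of late endosomes and lysosomes, did not pass it, at 0.066 (95% interval -0.068 to 0.20).

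In the complex for endosome to trans-Golgi transport, STX16, VTI1A and STX6 rose and VAMP4 did not pass the threshold. STX16, the Qa-SNARE, was at 98.57, 97.55 and 98.13 FPKM in siOXTR and 85.63, 81.20 and 80.55 FPKM in siControl (log2 fold change 0.25, adjusted p = 0.00116, limma). It shares exonic bases with the annotated readthrough gene STX16-NPEPL1, so its level may hold reads of both. VTI1A, the Qb-SNARE, was at 6.84, 7.20 and 7.63 FPKM in siOXTR and 5.64, 5.63 and 5.83 FPKM in siControl (log2 fold change 0.29, adjusted p = 0.00187, limma). VTI1A alone of the 3 was also higher after trimmed-mean scaling (adjusted p = 0.0325, limma). The Qc-SNARE STX6 was at 18.98 to 19.59 FPKM in siOXTR and 16.08 to 16.83 FPKM in siControl, and its relative STX10 at 33.82 to 35.09 FPKM in siOXTR and 28.26 to 30.70 FPKM in siControl. They rose by 0.20 and 0.22 on the log2 scale as deposited, with no overlap. VAMP4, the R-SNARE, was low, at 2.84, 2.27 and 2.90 FPKM in siOXTR and 2.73, 2.52 and 2.79 FPKM in siControl, with a log2 fold change of -0.0077 (95% interval -0.19 to 0.18).

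STX17 joins autophagosomes to lysosomes together with SNAP29 and VAMP8. It was at 7.39, 7.55 and 7.36 FPKM in siOXTR and 5.98, 6.07 and 5.84 FPKM in siControl, with no overlap (log2 fold change 0.28, adjusted p = 0.00181, limma). The call held after trimmed-mean scaling (0.17, adjusted p = 0.0371, limma). SNAP29 was at 8.49, 8.79 and 9.08 FPKM in siOXTR and 7.47, 8.0 and 8.41 FPKM in siControl. Its groups were also apart, but it did not pass the threshold (log2 fold change 0.13, adjusted p = 0.101, limma).

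Of the 9 tested plasma membrane SNAREs, 4 (STX3, VAMP3, VAMP1 and STX19) rose, a share near the 42.2% of all tested genes, and 2 of these, STX3 and VAMP3, were higher after trimmed-mean scaling (set median 0.12 as deposited and 0.0081 after scaling). STX3, the Qa-SNARE of apical delivery in epithelia, had the largest change of the family on the log2(FPKM + 1) scale. As a ratio of mean FPKM it was at 1.49, slightly under the 1.5 of BNIP1. STX3 was at 82.27, 73.72 and 77.53 FPKM in siOXTR, against 56.66, 51.16 and 48.96 FPKM in siControl, and the groups were far apart. Limma gave 0.57 on the log2 scale with an SE of 0.064 (adjusted p = 1.52e-05), and 1.56% of tested genes had one at least as high. VAMP3 (cellubrevin), a widely expressed R-SNARE of recycling and secretion, was at 57.64, 61.00 and 58.57 FPKM in siOXTR and 43.46, 45.21 and 49.60 FPKM in siControl (log2 fold change 0.35, adjusted p = 0.000325, limma).

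The usual partners at that membrane did not pass the threshold. STX4, the basolateral counterpart of STX3, was at 33.36, 36.87 and 33.87 FPKM in siOXTR and 31.86, 33.51 and 31.18 FPKM in siControl, with overlap (log2 fold change 0.10, 95% interval -0.020 to 0.23). SNAP23, which supplies Qb and Qc motifs to both syntaxins, was at 30.91, 31.60 and 30.27 FPKM in siOXTR and 27.38, 27.24 and 31.53 FPKM in siControl. Its log2 fold change was 0.11, and without siControl replicate 3, its highest control, it was 0.17 and passed the threshold (adjusted p = 0.0162, limma). VAMP2, the R-SNARE of regulated secretion, was at 16.67 to 18.08 FPKM in siOXTR and 13.42 to 17.69 FPKM in siControl (log2 fold change 0.10, 95% interval -0.089 to 0.29). STX1A, a neuronal syntaxin found here at 7.41 to 8.68 FPKM in siOXTR and 6.77 to 8.90 FPKM in siControl, passed the threshold only when siControl replicate 2, its highest control, was left out (0.23, adjusted p = 0.0247, limma). STX2 (epimorphin) had a log2 fold change of -0.014 (95% interval -0.15 to 0.12).

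The calls for the low members VAMP1 and STX19 rested on few libraries. VAMP1 was at 4.15, 5.43 and 3.67 FPKM in siOXTR and 3.83, 3.53 and 2.8 FPKM in siControl, and STX19, a syntaxin with no membrane segment, was at 3.40, 4.97 and 4.16 FPKM in siOXTR and 2.86, 2.84 and 3.55 FPKM in siControl. Both overlapped between groups, with adjusted p = 0.0456 and 0.0175 (limma), and each lost the call when siOXTR replicate 2, its highest library, was left out (adjusted p = 0.201 and 0.086, limma). SNAP47, a soluble SNARE with no settled compartment, was at 15.80 to 17.24 FPKM in siOXTR and 14.44 to 14.76 FPKM in siControl and rose by 0.16 (adjusted p = 0.0306, limma). Exons annotated for SNAP47 share bases with JMJD4 on the opposite strand, those of VTI1B with ARG2, those of STX1A with BUD23 and those of STX3 with OR10V1. GOSR2 shares bases with AC005670.2 on its own strand, as do SEC22A with PDIA5, VAMP2 with AC129492.3 and VTI1B with AL049779.1. On the opposite strand, SEC22C shares bases with NKTR and SS18L2, SNAP23 with LRRC57 and AC018362.3, and SNAP29 with PI4KA. VAMP1 shares them with TAPBPL and STX18 with NSG1, also on the opposite strand. Whether counting used strand is not stated.

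Ratios between related members within one library do not depend on how libraries are scaled. For 11 such pairs, chosen after the values had been seen, the groups were apart in 4. STX3 stood to STX4 at 2.47, 2.00 and 2.29 in siOXTR, against 1.78, 1.53 and 1.57 in siControl. SEC22B stood to SEC22C at 1.09, 1.00 and 1.04 in siOXTR, against 0.742, 0.768 and 0.796 in siControl. SEC22B was therefore at about the level of SEC22C in siOXTR and was below it in siControl. SEC22B to SEC22A averaged 1.39 ± 0.11 in siOXTR and 1.11 ± 0.0744 in siControl, and VAMP8 to VAMP7 averaged 4.95 ± 0.407 in siOXTR and 4.12 ± 0.243 in siControl (SD, n = 3 each). Each of the 4 had p = 0.1 in a two-sided exact permutation test, the smallest that 3 libraries against 3 can give, or 0.275 adjusted over the 11 pairs. The ratios of GOSR1 to GOSR2, STX6 to STX10, SNAP23 to SNAP29, STX7 to STX12, VTI1A to VTI1B, BET1 to BET1L and VAMP3 to VAMP2 overlapped between groups, with exact permutation p-values from 0.2 to 0.8.

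**Figure D3:**
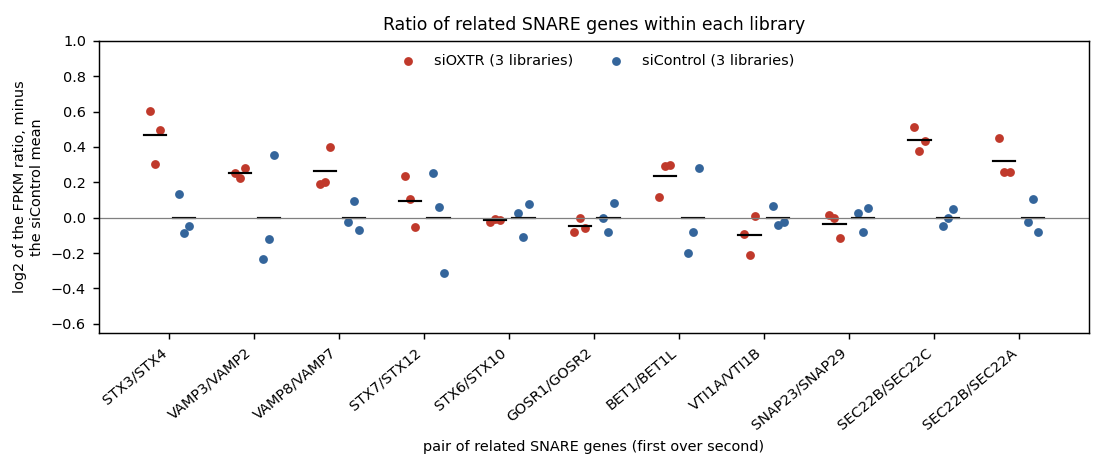
Log2 of the FPKM ratio of 11 pairs of related SNARE genes in each library, set to 0 at the siControl mean of each pair. Points are libraries (siOXTR red at left, siControl blue at right) and bars are group means. STX3/STX4 and SEC22B/SEC22C show the widest gaps, at 0.47 and 0.44 on the log2 scale.

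Members can also be grouped by the way they sit in the membrane. Of the 35 tested members 27 are tail-anchored, so the counts for these largely repeat those of the family. In the main coding transcript of GENCODE release 29, all 29 members known as tail-anchored had a single predicted hydrophobic segment, and at most 23 residues followed it. Proteins of the family were 100 to 464 residues long. Of the 27 tested tail-anchored members 21 rose and none fell (median log2 fold change 0.30). After trimmed-mean scaling 14 were higher and none lower. Of the 5 tested lipid-held or soluble members (SNAP23, SNAP29, SNAP47, STX19 and YKT6) 3 rose, and none was called after that scaling. Among the 3 members that cross the membrane more than once, STX17, SEC22A and SEC22C, 1 rose as deposited. The shares over all tested genes were 42.2% higher and 17.6% lower as deposited, and 19.7% and 24.2% after trimmed-mean scaling. The differences between tail-anchored and other members were not tested.

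Other genes with the same kind of predicted tail did not move as one. Among 275 tested genes outside the family whose only predicted segment lies at the end, 37.5% rose and 29.8% fell, with a median log2 fold change of 0.093. Among 3216 other predicted membrane or secreted genes 20.5% rose and 45.7% fell, and among 7945 with no predicted segment 51.0% rose and 6.02% fell. The 27 tail-anchored SNAREs, at 77.8% and 0%, thus had a higher share of rises and a lower share of falls than each of these classes. After trimmed-mean scaling 51.9% of these SNAREs were higher and none lower. The shares were then 21.5% higher and 33.1% lower for the other genes with a segment at the end, 8.83% higher and 53.1% lower for the membrane or secreted class, and 24.0% higher and 12.4% lower for genes with no segment. The prediction rests on hydropathy alone, and the difference between classes was not tested. A hydrophobic start did not by itself take a gene out of the class with a segment at the end. The 275 genes may therefore include proteins with a signal peptide, which are not tail-anchored. In a list of 34 tested tail-anchored proteins of other functions, 19 rose and 1 fell (median 0.20), beside 42.2% and 17.6% of all tested genes. After trimmed-mean scaling 12 were higher and 2 lower (median 0.076), beside 19.7% and 24.2% of all tested genes. HMOX1 had the largest rise of this list, 1.48 on the log2 scale as deposited (adjusted p = 1.23e-09, limma) and 1.36 after scaling. FIS1, a mitochondrial fission adaptor, averaged 58.3 ± 2.69 FPKM in siOXTR and 42.0 ± 4.90 FPKM in siControl (SD, n = 3 each). BNIP3, a mitophagy receptor induced by hypoxia, was the one that fell as deposited, at 65.3 ± 2.93 FPKM in siOXTR and 107.6 ± 9.57 FPKM in siControl (SD, n = 3 each).

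**Figure D4:**
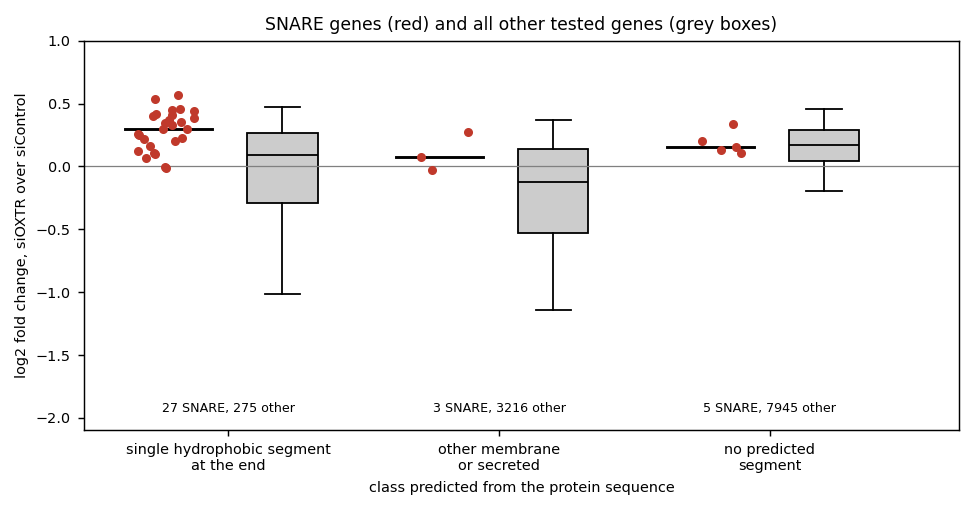
Log2 fold change of siOXTR over siControl by predicted membrane class, with each tested SNARE gene as a red point (bar at the median) and all other tested genes of the class as a grey box (median, quartiles, whiskers from the 5th to the 95th percentile). The 27 SNAREs with a segment at the end have a median of 0.30, against 0.093 for the 275 other genes of that class. Those 275 may include proteins with a signal peptide.

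Most genes that take SNARE complexes apart or guide their assembly rose. All 4 of NSF, NAPA, NAPB and NAPG rose (median log2 fold change 0.29), and NSF, the ATPase that recycles SNARE complexes, was at 39.01, 37.46 and 37.37 FPKM in siOXTR and 31.47, 28.45 and 28.15 FPKM in siControl (log2 fold change 0.36, adjusted p = 0.000242, limma). Of 8 SM proteins 6 rose and none fell, beside 42.2% and 17.6% of all tested genes. SCFD1 (Sly1), the SM protein of STX5, led at 33.6 ± 1.73 FPKM in siOXTR and 23.7 ± 1.64 FPKM in siControl (SD, n = 3 each), a log2 fold change of 0.48. VPS33A, the SM subunit of the HOPS tether at lysosomes, and VPS45, which binds STX16, rose by 0.41 and 0.34. After trimmed-mean scaling 3 of the 4 NSF and adaptor genes and 3 of the 8 SM genes were higher, and none was lower. Among all tested genes 19.7% were then higher and 24.2% lower.

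Of 47 tethering genes 34 rose and none fell (median 0.23), beside 42.2% and 17.6% of all tested genes. After trimmed-mean scaling 16 were higher and 3 lower, beside 19.7% and 24.2% of all tested genes. Among the tethers TRAPPC6A rose by 0.55, VPS16 of HOPS by 0.52, COG7 by 0.46 and VPS52 of the GARP complex by 0.44. As for insertion of tail-anchored proteins, 4 of the 7 GET pathway genes rose and 1 fell, beside 42.2% and 17.6% of all tested genes. The GET pathway genes that rose included the cytosolic factors GET4, GET3 and BAG6, at 0.28, 0.28 and 0.26. After trimmed-mean scaling 1 of the 7 was higher and 1 lower, beside 19.7% and 24.2% of all tested genes. The higher one was GET4 (adjusted p = 0.0497, limma). GET3 and BAG6 did not pass the threshold after scaling (adjusted p = 0.0934 and 0.101, limma). GET1, a subunit of the receptor in the ER membrane, fell on either scale. It was at 14.27, 15.22 and 13.29 FPKM in siOXTR, against 17.50, 17.45 and 18.70 FPKM in siControl (log2 fold change -0.31, adjusted p = 0.0013, limma).

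Synaptotagmins and extended synaptotagmins are calcium-binding membrane proteins. A list of these, which also held the synaptotagmin-like gene SYTL1, had 4 of 13 tested genes lower and 3 higher as deposited (median -0.14). SYTL1 was among the 3 higher, at 0.26 on the log2 scale. After trimmed-mean scaling 6 were lower and none higher (median -0.20). Among all tested genes 17.6% were lower and 42.2% higher as deposited, and 24.2% and 19.7% after that scaling. ESYT1, which ties the ER to the plasma membrane, was at 14.18, 13.93 and 14.30 FPKM in siOXTR, against 44.79, 44.23 and 43.80 FPKM in siControl (log2 fold change -1.58). The log2 fold changes of ESYT2 and SYT7 were -0.60 and -0.32. Of 10 tested SNARE-binding regulators 3 rose and 2 fell, beside 42.2% and 17.6% of all tested genes, and 1 was higher and 2 lower after trimmed-mean scaling. LLGL1, a polarity protein that binds syntaxins, was at -0.42. The 3 that rose were TXLNA (0.34), UNC13B (0.26) and LLGL2 (0.26), a relative of LLGL1. Of the latter 3, only TXLNA was higher after trimmed-mean scaling (adjusted p = 0.00591, limma).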

How the data were processed

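The authors deposited 1 table per library with a single FPKM value for each gene, per the file headers. Per the submitters' processing notes, GRCh38.p13 served as the genome. How reads were aligned and quantified, with or without strand, is not given in the sources used here. Low values were searched for the steps of whole fragments, with transcript lengths from GENCODE release 29. The best coherence was 0.168 to 0.293 of a possible 1, so the depth is unknown and no interval from counts is given.

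The 11550 genes averaging 1 FPKM or more were tested two-sided by limma (version 3.58.1, R 4.3.3) on log2(FPKM + 1), with group as the only term, a mean trend and a robust prior. Benjamini-Hochberg adjustment ran over all of them, and adjusted p under 0.05 was the threshold. The added 1 shrinks the fold changes of low genes. The method was tested on simulated data in which few genes changed, as many up as down. Here most tested genes were called, so that simulation cannot decide between the deposited and the trimmed-mean scale. A ± gives the SD over the 3 libraries of a group. Trimmed-mean scaling trimmed 30% of log ratios and 5% of levels at each end.

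Proteins were translated from the main coding transcript in GENCODE release 29. A predicted segment was a 19-residue window whose Kyte-Doolittle hydropathy averaged 1.7 or more. Genes whose only segment ended within 45 residues of the end formed the tail class. A hydrophobic start was 9 residues in a row among the first 35 that averaged 2.2 or more. It took a gene out of the tail class only where the segment itself began within the first 35 residues. Other genes with a segment or a hydrophobic start were put in the membrane or secreted class. This prediction follows one made earlier on these data.

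The members, lists, roles and complexes were chosen with earlier results of these data known. Members are named apart from 1 that is not reported here, and from the other lists at most 4 genes past the threshold with the largest change and a mean of at least 5 FPKM. Alternatives were another pseudocount, other filters, scaling, no trend, a replicate block and leaving out each library.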

Additional observations from a re-analysis of the deposited data

How the results depend on the processing

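Across the alternatives the members called higher numbered 25 with a pseudocount of 0.1, 21 with no filter on low values, 23 of 32 when only genes averaging 5 FPKM or more were tested and 23 with neither trend nor robust prior, and none was called lower in these. Leaving out 1 library gave 20 to 24 called higher, none lower, and a median log2 fold change of 0.22 to 0.28. With no filter, which adds the 4 lowest members, the median was 0.23. Trimmed-mean scaling made the largest difference, with 15 members higher, 1 lower, 16 called in all and a median of 0.14, while 2281 of all tested genes were higher in place of 4869, and 2794 lower in place of 2036. It turned 5 uncalled members to values just under 0, namely VAMP7 (-0.053), SEC22A (-0.039), VAMP2 (-0.017), STX4 (-0.017) and SNAP23 (-0.015). Leaving out 1 library moved VAMP2 between -0.015 (without siControl replicate 3) and 0.17, STX2 between -0.033 and 0.012 (without siControl replicate 3) and VAMP4 between -0.054 and 0.073 (without siOXTR replicate 2). None of these values passed the threshold.

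Same-numbered libraries deviated from their group means with correlations of 0.107, 0.0042 and 0.16, so the numbers were not taken to pair the libraries. With a replicate block 25 members were higher and none lower, as in the fit without it, and over all genes 5100 were higher and 2105 lower. Depth is unknown, and VAMP5, STX11 and SNAP25 were too low to be judged.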
